A study of Homo sapiens with 18 samples.

Results

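The comparison was of NCI-H1693 cells after 72 h in 50 nM PRT3789 with the same cells after 72 h in DMSO, the solvent. It took 6 of the 18 libraries of the series, 3 per group, chosen by the treatment and time that the labels give. All genes of the table were included. The other 12 libraries hold PRT3789 and DMSO at 6 and 48 h, again with 3 libraries each. NCI-H1693 is a long-established line from a human lung cancer of the non-small cell type, SMARCA4-deficient per the labels, which holds for the PRT3789 and the DMSO cells alike. It is a single line, and the labels give no second line, no SMARCA4-restored line and no inactive analogue of the compound. The labels do not say whether the libraries of a group came from separate cultures, so a p here measures the spread between libraries, which may be technical. Unless stated otherwise, that spread was estimated from all 18 libraries and not from the 72 h libraries alone.

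SWI/SNF complexes use ATP to move nucleosomes and so open enhancers and promoters to transcription factors, with either SMARCA2 or SMARCA4 as the motor subunit. Cells that have lost SMARCA4 depend on SMARCA2 for this activity, and PRT3789 directs the SMARCA2 protein to the proteasome. SWI/SNF is best known at enhancers that carry AP-1 and TEAD sites and lineage factors in epithelial cells. Protein was not analysed here, so the values describe messenger RNA only.

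The 6 libraries held 26506833 to 29529712 counts. Between 15222 and 15467 genes reached 10 counts in each of them. Levels are in CPM, counts scaled to a common effective library size, and are not divided by gene length, so they are compared between groups and not between genes. A mean is given ± SD over 3 libraries and a log2 fold change (log2FC, PRT3789 over DMSO) ± its standard error. The first principal component of the 6 libraries carried 85.6% of their variance and placed all PRT3789 libraries on one side and all DMSO libraries on the other. The next component carried 5.11%. The SD of log2 CPM between replicates had a median over genes of 0.0783 in PRT3789 and 0.0832 in DMSO. At 6 h it was larger, 0.164 in PRT3789 and 0.183 in DMSO, and the model of all 18 libraries takes in those groups. Epithelial markers were high in all 6 libraries, with EPCAM at 561 to 572 CPM in PRT3789 and 566 to 609 CPM in DMSO. Among markers of other cells, HBB (red cells) was listed at 0 in all 6 libraries and the leukocyte gene PTPRC did not exceed 0.647 CPM. The fibroblast markers LUM and COL1A1 were present in all 6, LUM at 79.1 to 88.2 CPM in PRT3789 and 94.5 to 105 CPM in DMSO and COL1A1 at 19.3 to 23.5 CPM in PRT3789 and 20.6 to 23.8 CPM in DMSO, while DCN, another fibroblast marker, did not exceed 1.33 CPM. The part of such cells in the results was not tested. The lung adenocarcinoma markers NKX2-1 and NAPSA did not exceed 0.448 and 1.68 CPM, so these markers do not show the lung origin that the labels give. NAPSA varied between replicates, with 1.34, 1.68 and 0.133 CPM in DMSO.

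About as many genes rose as fell, but the falls were larger. Of 16291 genes tested, 3478 (21.3%) were higher in PRT3789 and 3591 (22.0%) were lower, at a Benjamini-Hochberg adjusted p under 0.05 in edgeR's quasi-likelihood test. Together they made up 43.4% of the genes tested. The CPM of the groups did not overlap in 61.9% of genes. A change of at least 2-fold was reached by 864 rises (5.30%) and 1220 falls (7.49%). At 8-fold or more the numbers were 46 rises and 260 falls, and at 16-fold or more 16 rises and 137 falls. The median log2FC of all genes tested was 0.01, and the median size among called genes was 0.64. Genes that rose at least 2-fold held 3.96% of counts in PRT3789 and 1.43% in DMSO, and genes that fell at least 2-fold held 2.42% in PRT3789 and 6.78% in DMSO. Among the 519 genes whose level in some group of the series ranged over more than 1.5 log2 units between replicates, 29 were called higher and 79 lower here. They are marked where they are named.

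**Figure D1:**
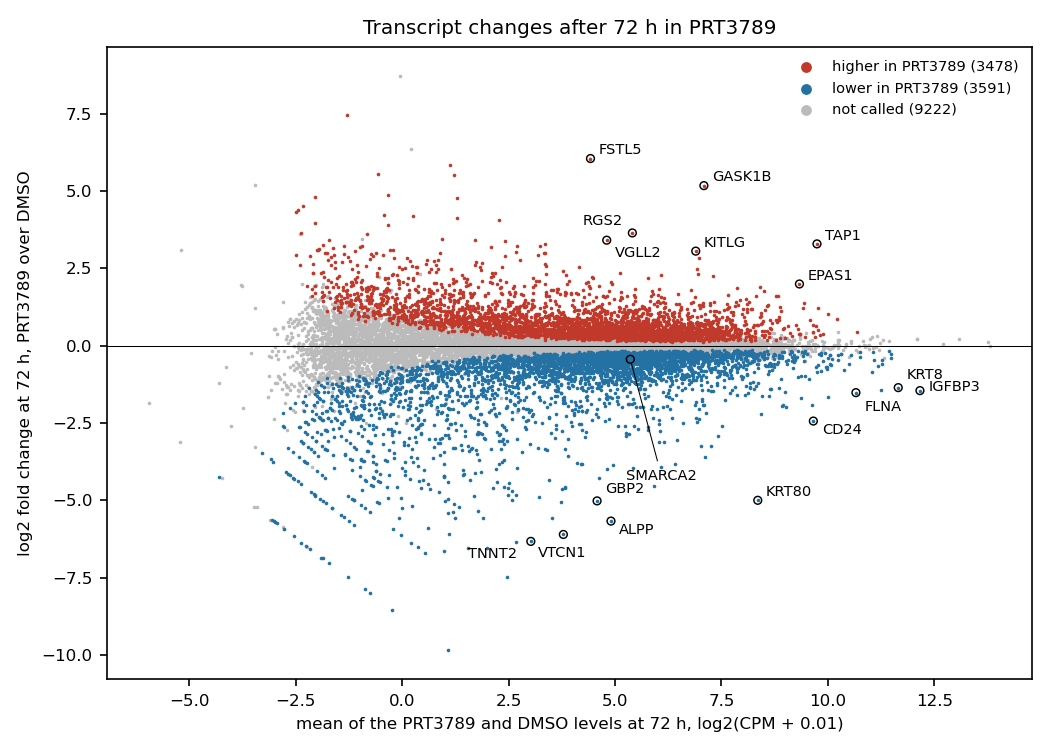
Log2FC of PRT3789 over DMSO at 72 h (y axis) against the mean level over the 6 libraries in CPM (x axis, log scale with 0.01 CPM added), 1 point per gene tested, with called genes coloured by direction. The 3478 rises and 3591 falls lie at all levels, and 46 rises and 260 falls reach 8-fold.

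The transcript of the compound's own target was lower after 72 h. SMARCA2 had 34.3, 37.4 and 32.8 CPM in the PRT3789 libraries and 45.0, 49.9 and 46.9 CPM in the DMSO libraries. The groups did not overlap, and SMARCA2 fell 1.36-fold (log2FC -0.44 ± 0.10, adjusted p = 0.00108). SMARCA4, the paralogous motor, had 7.98, 9.73 and 9.77 CPM in PRT3789 and 11.1, 11.2 and 9.71 CPM in DMSO, and these values overlapped (log2FC -0.22 ± 0.17, adjusted p = 0.318). Of the SWI/SNF subunits, 6 of 27 tested rose (22.2%) and 5 fell (18.5%), near the 21.3% and 22.0% of all genes tested. No called member reached 2-fold, and the median log2FC was 0.16. With the 72 h libraries fitted apart 12 rose, with total counts 10, and 3 with no filter on low counts or without replicate 3 of either group. SMARCD2 and SMARCD3, alternative forms of the same subunit, moved in opposite directions. SMARCD2 fell 1.55-fold to 60.7 ± 0.614 CPM in PRT3789, against 94.2 ± 5.47 CPM in DMSO. SMARCD3 rose 1.98-fold to 2.99 ± 0.0333 CPM in PRT3789, against 1.51 ± 0.236 CPM in DMSO. Polycomb complexes, which silence genes and oppose SWI/SNF, had 6 higher (21.4%) and 5 lower (17.9%) members among 28 tested. These shares were also near those of all genes, no called member reached 2-fold, and the median was -0.02. With no filter 3 rose, and 8 fell with 72 h fitted apart. EZH1, a catalytic subunit of polycomb repressive complex 2, rose 1.68-fold. PHF19, an accessory subunit, fell 1.5-fold.

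Where the 6 libraries averaged 5 CPM or more, FSTL5 and GASK1B rose by more than 30-fold. FSTL5, a secreted follistatin-like protein, had 44.3, 43.7 and 38.8 CPM in the PRT3789 libraries and 0.598, 0.710 and 0.598 CPM in the DMSO libraries. Every PRT3789 library lay far above every DMSO library, a 66.2-fold rise (log2FC 6.05 ± 0.20, adjusted p = 1.58e-13). GASK1B, a Golgi-associated kinase-like protein, had 262, 287 and 245 CPM in PRT3789 and 6.2, 7.59 and 8.21 CPM in DMSO, a rise of 36.1-fold. RGS2, which shortens signalling by Gq-coupled receptors, had 75.1, 77.8 and 82.9 CPM in PRT3789 and 5.88, 6.24 and 6.71 CPM in DMSO. PCDH19, a protocadherin of cell adhesion in neurons, had 10.1, 9.60 and 9.67 CPM in PRT3789 and 0.845, 1.12 and 0.831 CPM in DMSO and rose 10.5-fold. Groups without overlap were a condition of this choice of genes, so their separation is a description. MDGA1, a GPI-anchored adhesion protein of neurons, rose 9.35-fold to 11.7 ± 0.679 CPM in PRT3789, against 1.25 ± 0.152 CPM in DMSO. VGLL2, a vestigial-like cofactor of TEAD factors, rose 10.6-fold to 51.1 ± 0.878 CPM in PRT3789, against 4.80 ± 0.230 CPM in DMSO. HNF4G, a nuclear receptor of gut and liver epithelium, rose 9.33-fold. NR4A3, an orphan nuclear receptor, rose 7.50-fold to 9.45 ± 0.621 CPM in PRT3789, against 1.26 ± 0.115 CPM in DMSO. PLAGL1, an imprinted zinc finger factor, rose 7.16-fold to 219 ± 13.2 CPM in PRT3789, against 30.6 ± 1.70 CPM in DMSO. AHRR, the repressor of the aryl hydrocarbon receptor, rose 8.14-fold to 11.4 ± 0.852 CPM in PRT3789, against 1.39 ± 0.219 CPM in DMSO, but its level varied between replicates of a group in the series, and its reads can be shared with the PDCD6-AHRR readthrough transcript. COL3A1, a fibrillar collagen, rose 9.75-fold, and KITLG, the ligand of the KIT receptor, 8.32-fold. CYS1, a protein of the primary cilium, rose 7.54-fold, and HIVEP2-DT, a divergent transcript beside HIVEP2, 7.89-fold.

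**Figure D2:**
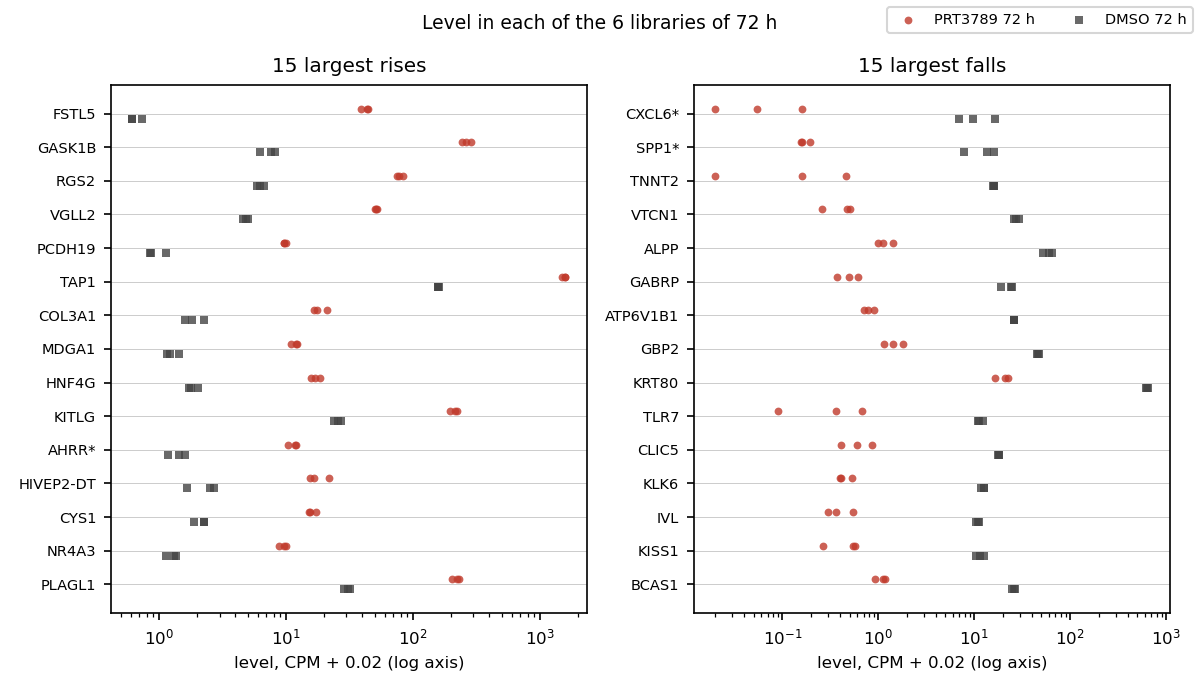
CPM (log axis, 0.02 CPM added) in the 3 PRT3789 and 3 DMSO libraries of 72 h, 1 point per library, for the 15 largest rises and the 15 largest falls among genes with a mean of at least 5 CPM; a star marks genes that varied between replicates of a group somewhere in the series. The choice required groups without overlap; FSTL5 stands at 38.8 to 44.3 CPM in PRT3789 and 0.598 to 0.710 CPM in DMSO, and VTCN1 at 0.238 to 0.487 CPM in PRT3789 and 25.6 to 28.9 CPM in DMSO.

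Several of the largest falls among genes with a mean of at least 5 CPM left under 1 CPM in PRT3789. VTCN1, the B7-H4 inhibitory ligand of T cells, had 0.451, 0.238 and 0.487 CPM in the PRT3789 libraries and 27.0, 28.9 and 25.6 CPM in the DMSO libraries. All PRT3789 libraries were below all DMSO libraries, a 68.7-fold fall (log2FC -6.10 ± 0.20, adjusted p = 1.69e-13). TNNT2, cardiac troponin T, had 0.139, 0.442 and 0 CPM in PRT3789 and 16.1, 16.2 and 15.8 CPM in DMSO. GABRP, a GABA type A receptor subunit of epithelia, had 0.590, 0.476 and 0.348 CPM in PRT3789 and 23.8, 24.7 and 19.0 CPM in DMSO. Each was under 1 CPM in every PRT3789 library and above 15 CPM in every DMSO library. ATP6V1B1, a proton pump subunit, fell 33.3-fold, the endosomal RNA sensor TLR7 31.9-fold, and CLIC5, a chloride intracellular channel protein, 29.7-fold. KLK6, a secreted kallikrein protease, fell 28.5-fold and KISS1, the kisspeptin precursor, 26.0-fold. BCAS1, a gene first named in breast cancer, fell 24.6-fold to 1.05 ± 0.128 CPM in PRT3789, against 25.8 ± 1.05 CPM in DMSO. ALPP, placental alkaline phosphatase, fell 50.9-fold, with the caveat that reads can be divided among the near-identical genes of its family. CXCL6, SPP1 and MMP7 had among the lowest log2FC, but their levels differed widely between replicates of other groups and are given with those below.

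In all, 26 genes averaged at least 5 CPM in DMSO and under 0.5 CPM in PRT3789, and no gene did the reverse. Of the 26, 5 (CXCL6, SPP1, MMP7, ANXA8L1 and PLAT) varied between replicates of some group. TMPRSS13, a transmembrane serine protease, had 0.0694, 0.102 and 0 CPM in PRT3789 and 5.28, 6.54 and 5.38 CPM in DMSO, so the PRT3789 values were at the level of 3 counts or below. SLC7A7, a cationic amino acid transporter, averaged 0.150 ± 0.0542 CPM in PRT3789 and 7.30 ± 0.581 CPM in DMSO, and CAPN14, a calpain of oesophageal epithelium, 0.161 ± 0.0543 CPM in PRT3789 and 6.74 ± 1.34 CPM in DMSO. The noradrenaline transporter SLC6A2 fell 29.3-fold, the haematopoietic factor NFE2 24.5-fold, and GJA5, the gap junction protein connexin 40, 21.3-fold. The rule for these genes used both group means, so the separation describes the choice.

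Among genes that changed at least 2-fold, the largest gains in CPM were in TAP1, described below with its partners, and in EPAS1. EPAS1, the hypoxia-inducible factor 2 alpha subunit, had 1016, 1057 and 1019.9 CPM in the PRT3789 libraries and 249, 255 and 272 CPM in the DMSO libraries, a 3.98-fold rise. SVIL, which links actin to membranes, rose 2.35-fold to 1232 ± 17.0 CPM in PRT3789, against 524 ± 40.4 CPM in DMSO. VMP1, a membrane protein of autophagy, rose 2.05-fold to 1373 ± 24.6 CPM in PRT3789, against 669 ± 44.2 CPM in DMSO. CITED2, a CBP and p300 cofactor, rose 2.59-fold and the scaffold protein IQGAP1 2.32-fold. The guidance cue SEMA3C rose 3.05-fold, the lipase LIPH 3.02-fold, and MAP2, a microtubule protein of dendrites, 3.41-fold. SAP18, a subunit of the SIN3 histone deacetylase complex, rose 3.70-fold to 531 ± 7.47 CPM in PRT3789, against 144 ± 9.18 CPM in DMSO. The largest loss with the same limit was in IGFBP3, which binds insulin-like growth factors, with 2398, 2466 and 2503 CPM in PRT3789 and 6832, 6958 and 6374 CPM in DMSO. FLNA, the actin crosslinker filamin A, fell 2.86-fold to 837 ± 31 CPM in PRT3789, against 2398 ± 140.4 CPM in DMSO. CD24, a cell surface glycoprotein, fell 5.41-fold to 252 ± 7.24 CPM in PRT3789, against 1365 ± 44.1 CPM in DMSO, PRSS23, a secreted protease, 3.76-fold and FSTL1, a secreted follistatin-like glycoprotein, 3.23-fold. The others of the 10 largest losses among falls of at least 2-fold were KRT8, KRT18, KRT80, KRT81 and a locus with no assigned gene name. FSTL5 and FSTL1, both follistatin-like, thus changed in opposite directions.

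Keratins, the intermediate filament proteins of epithelia, were lower in sum by more than 2-fold. Of the keratins, 0 of 15 tested rose and 7 fell, all 7 of them by at least 2-fold, with a median log2FC of -1.64 where all genes tested had 0.01. Of all genes tested 21.3% rose and 22.0% fell. Among the 15 keratins, 5 varied between replicates of some group, 1 of the called ones among them. Their summed level was 3656 to 3914 CPM in PRT3789 and 9745 to 10569.6 CPM in DMSO. KRT80 had 22.6, 20.7 and 16.3 CPM in PRT3789 and 631, 621 and 652 CPM in DMSO, a fall of 31.9-fold. KRT8 had 1878, 1797 and 1758 CPM in PRT3789 and 4884, 4560.1 and 4459.8 CPM in DMSO, and its partner KRT18 1386, 1297 and 1291 CPM in PRT3789 and 3729.6, 3521 and 3478 CPM in DMSO. Both fell, KRT8 2.56-fold and KRT18 2.70-fold, while KRT19 averaged 333 ± 3.30 CPM in PRT3789 and 318 ± 26.6 CPM in DMSO and did not pass the test. KRT81 fell 3.97-fold; it lies within the span of the closely similar KRT86, so its counts are uncertain, and KRT8 and KRT18 have processed copies in the genome that can take reads. Genes of the cornified envelope, the protein shell of stratified epithelia, had 2 higher and 10 lower members among 26 tested, with 2 of these 12 varying between replicates. IVL, involucrin, a main protein of that shell, had 0.521, 0.340 and 0.278 CPM in PRT3789 and 10.9, 11.1 and 10.5 CPM in DMSO and fell 28.2-fold. SPRR3, another of its proteins, had 0, 0.0681 and 0.104 CPM in PRT3789 and 4.82, 4.0 and 3.72 CPM in DMSO. The DMSO levels of both were low but present in each library, and the PRT3789 levels lay below all of them. The stem cell factor SOX2 rose 2.08-fold and the epithelial factor KLF5 1.94-fold.

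Promoters of IVL and VTCN1 are shown because both genes were among the 15 largest falls and both hold the AP-1 consensus TGANTCA. This motif reads the same on both strands. Of those 15 falls, 11 had a promoter to search, and only these 2 held the motif. Among the 15 largest rises, 0 of 12 with a promoter held it. The windows run from 250 bases before to 50 bases after the annotated start, 5′ to 3′ on the strand of the gene, from RefSeq on GRCh38.p14. They lie at chr1:152908296-152908595 (plus strand) and chr1:117210878-117211177 (minus strand). Capitals mark TGANTCA, which begins at -123 in IVL and at 2 in VTCN1, counted from the start.
IVL: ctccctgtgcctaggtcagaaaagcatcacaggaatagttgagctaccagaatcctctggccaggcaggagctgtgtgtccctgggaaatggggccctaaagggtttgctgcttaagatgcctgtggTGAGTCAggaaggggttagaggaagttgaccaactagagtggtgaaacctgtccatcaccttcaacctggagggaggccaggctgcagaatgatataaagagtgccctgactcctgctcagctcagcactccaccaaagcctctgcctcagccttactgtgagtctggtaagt
VTCN1: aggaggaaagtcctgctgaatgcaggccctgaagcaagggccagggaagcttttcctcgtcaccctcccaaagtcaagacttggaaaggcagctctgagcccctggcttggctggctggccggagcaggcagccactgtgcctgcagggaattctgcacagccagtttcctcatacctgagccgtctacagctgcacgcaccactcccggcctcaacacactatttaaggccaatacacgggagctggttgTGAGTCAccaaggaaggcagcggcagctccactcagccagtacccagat
TGANTCA was present in 10.4% of promoters of genes that fell at least 2-fold (87 of 837 with a promoter in the RefSeq table), in 5.18% of those that rose at least 2-fold (33 of 637), in 4.74% of the 12540 tested genes with a promoter, and in 7.76% of all 27305 promoters. Among changes of at least 8-fold the shares were 12.7% of falls (21 of 165) and 12.1% of rises (4 of 33). The motif was thus more frequent among falls than rises at 2-fold and about equally frequent at 8-fold, where few rises were available. The TEAD motif GGAATG, searched on both strands, was in 12.1% of promoters of genes that fell at least 2-fold, 13% of those that rose and 11% of those tested. These are descriptions of short windows with no test, and distant enhancers were not analysed here.

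Genes of peptide loading on HLA class I rose more often than they fell, while interferon-stimulated genes as a list did not move in 1 direction. Of the antigen presentation genes, 18 of 40 tested rose and 6 fell, against 21.3% and 22.0% of all genes, with a median log2FC of 0.23. Their summed level was 10069.8 to 10422 CPM in PRT3789 and 6356 to 6696 CPM in DMSO. TAP1, a subunit of the transporter that brings peptides into the endoplasmic reticulum, had 1585, 1497 and 1588 CPM in the PRT3789 libraries and 158, 162 and 157 CPM in the DMSO libraries. The groups lay far apart, with a rise of 9.78-fold (log2FC 3.29 ± 0.06, adjusted p = 2.4e-16). PSMB9, the immunoproteasome subunit encoded next to TAP1, had 259, 246 and 275 CPM in PRT3789 and 56.0, 56.3 and 51.5 CPM in DMSO and rose 4.77-fold. TAP2, the other transporter subunit, rose 3.02-fold and PSMB8, a further immunoproteasome subunit, 3.20-fold. The nonclassical class I genes HLA-E and HLA-F rose 2.47-fold and 4.87-fold. HLA-B and HLA-C, which are classical genes, rose 2.06-fold and 1.83-fold, although reads of the class I genes can be assigned to a close relative. NLRC5, the transactivator of class I genes, rose 1.89-fold. B2M, the shared light chain, averaged 709.9 ± 14.6 CPM in PRT3789 and 585 ± 51.9 CPM in DMSO and did not pass the test (adjusted p = 0.339).

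The promoters of TAP1 and PSMB9 are shown because these neighbours rose together from divergent starts. TAP1 spans chr6:32845209-32853704 on the minus strand. The windows overlap at their ends on opposite strands, at chr6:32853655-32853954 (minus strand) for TAP1 and chr6:32853942-32854241 (plus strand) for PSMB9. Capitals in TAP1 mark matches on either strand to GAAANNGAAA, the core of the interferon-stimulated response element, which begin at -134 and -128 and overlap each other, and to GGGANNNNCC, the core of the NF-kB site, which begin at -237, -72 and 23.
TAP1: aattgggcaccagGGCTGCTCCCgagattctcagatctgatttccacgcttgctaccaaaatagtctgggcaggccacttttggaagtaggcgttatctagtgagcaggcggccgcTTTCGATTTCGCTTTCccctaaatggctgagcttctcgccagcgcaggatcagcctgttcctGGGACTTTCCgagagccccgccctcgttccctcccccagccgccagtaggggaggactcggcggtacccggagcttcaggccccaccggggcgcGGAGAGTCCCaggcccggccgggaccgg
PSMB9: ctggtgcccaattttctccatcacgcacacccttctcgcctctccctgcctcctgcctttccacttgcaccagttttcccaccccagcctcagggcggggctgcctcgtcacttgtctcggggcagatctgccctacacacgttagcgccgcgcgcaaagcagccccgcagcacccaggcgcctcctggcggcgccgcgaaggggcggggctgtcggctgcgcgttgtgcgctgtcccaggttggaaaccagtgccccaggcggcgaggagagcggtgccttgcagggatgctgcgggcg
None of the 4 motifs searched was found in the PSMB9 window. GAAANNGAAA was in 2.8% of promoters of tested genes, 2.2% of those of genes that rose at least 2-fold and 2.87% of those that fell. GGGANNNNCC was in 31% of promoters of tested genes, 31.4% of rises and 34.5% of falls. Among the 15 largest rises, 12 had a promoter in the table, and 1 of them, TAP1, held GAAANNGAAA.

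Of the antiviral interferon-stimulated genes, 16 of 58 tested rose (27.6%) and 23 fell (39.7%), with a median of -0.07. The shares over all genes tested were 21.3% and 22.0%. IRF1, a transcription factor of the interferon response, had 174, 171 and 170.5 CPM in PRT3789 and 51.8, 49.1 and 47.8 CPM in DMSO and rose 3.47-fold. IFIH1, a sensor of double-stranded RNA, rose 2.67-fold. ISG15, a ubiquitin-like modifier, rose 1.68-fold. In contrast GBP2, an interferon-induced GTPase, had 1.77, 1.12 and 1.39 CPM in PRT3789 and 47.1, 45.3 and 46.6 CPM in DMSO, a fall of 32.4-fold with no overlap. IFITM2, a membrane protein that limits virus entry, fell 2.22-fold, though its sequence is close to that of IFITM3. The antiviral GTPase MX1 fell 1.98-fold. Members of the list therefore moved in opposite directions within the same libraries.

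Of the NF-kB and cytokine genes, 10 of 33 tested rose (30.3%) and 9 fell (27.3%), with a median log2FC of -0.56. The shares over all genes tested were 21.3% and 22.0%. Of the 33, 11 varied between replicates of some group. RELB, a subunit of the non-canonical pathway, had 38.3, 38.1 and 41.8 CPM in PRT3789 and 13.1, 13.8 and 11.7 CPM in DMSO and rose 3.07-fold. NFKB2, its partner, rose 2.30-fold, the inhibitor NFKBIB 2.02-fold and BIRC3, an inhibitor of apoptosis, 2.52-fold. Of the 9 members that fell, 5 varied between replicates of some group, CXCL8 and CXCL5 among them, and without such genes 4 fell. Among immune checkpoint ligands, 5 of 22 tested rose (22.7%) and 8 fell (36.4%). VSIR, the VISTA ligand, had 10.1, 8.85 and 9.32 CPM in PRT3789 and 68.8, 62.9 and 68.0 CPM in DMSO and fell 7.07-fold. CD274, PD-L1, fell 2.18-fold to 3.09 ± 0.0693 CPM in PRT3789, against 6.75 ± 0.943 CPM in DMSO. The adhesion protein NECTIN2 rose 1.98-fold and CD55, which protects cells from complement, 2.22-fold.

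**Figure D3:**
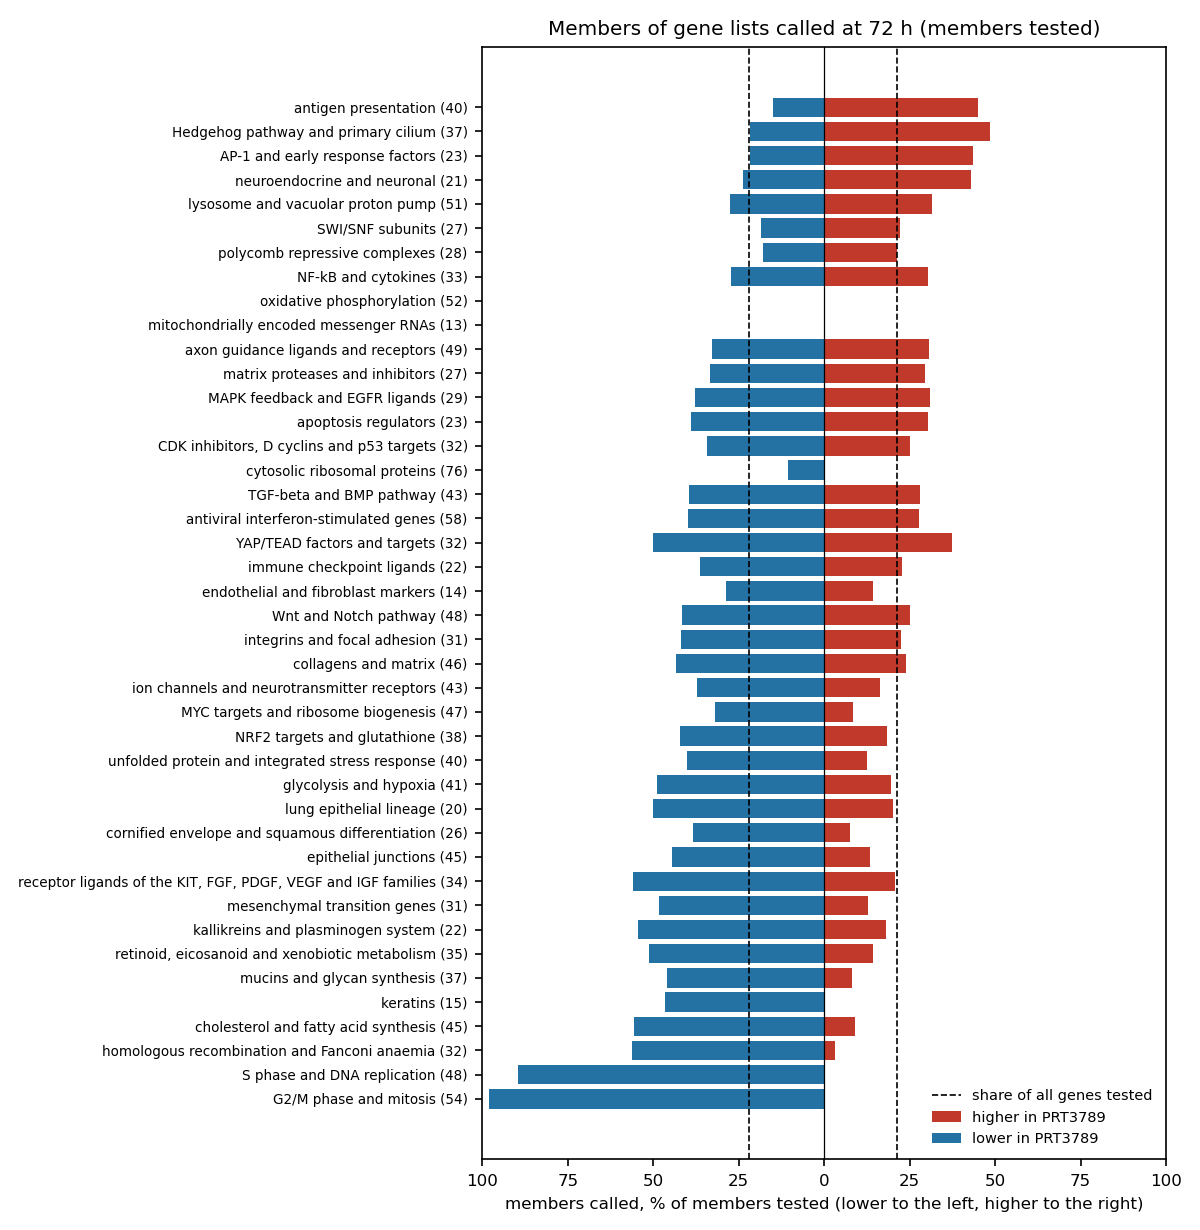
Share of tested members (x axis, percent) that were higher or lower in PRT3789 at 72 h, for the lists with at least 10 tested members; dashed lines mark the shares over all genes tested, 21.3% higher and 22.0% lower. The mitosis list has 53 of 54 members lower and the S phase list 43 of 48, with none higher in either. Antigen presentation has 18 of 40 members higher and the joint list of Hedgehog and cilium genes 18 of 37.

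Genes of cell division fell almost without exception, by moderate amounts. Of all genes tested 21.3% rose and 22.0% fell. Of the G2/M and mitosis genes, 0 of 54 tested rose and 53 fell, 22 of them by at least 2-fold, with a median log2FC of -0.95. Their summed level was 2530.4 to 2669.9 CPM in PRT3789 and 4704 to 4792 CPM in DMSO. KIF20A, a kinesin of cytokinesis, had 64.9, 66.7 and 60.2 CPM in PRT3789 and 154, 153 and 147 CPM in DMSO. CCNB1, the mitotic cyclin B1, fell 1.96-fold, the mitotic kinase PLK1 2.05-fold, and CDC20, which activates the anaphase-promoting complex, 1.95-fold. Of the S phase genes, 0 of 48 tested rose and 43 fell with a smaller median of -0.55, and 1 fell by 2-fold. That gene was CCNA2, cyclin A2, with a fall of 2.02-fold, and TK1, thymidine kinase, fell 1.90-fold. In the joint list of homologous recombination and Fanconi anaemia genes, 1 of 32 tested rose and 18 fell. FANCI, a Fanconi anaemia protein, was lower by 1.48-fold and XRCC2, a recombination protein, by 2.01-fold. Inhibitors of the cycle did not move together. CDKN2B, p15, rose 2.63-fold to 335 ± 5.4 CPM in PRT3789, against 127 ± 2.29 CPM in DMSO, while CDKN1A, p21, fell 2.08-fold to 21.3 ± 0.531 CPM in PRT3789, against 44.3 ± 2.67 CPM in DMSO. GADD45A, a growth arrest gene, rose 2.41-fold, and PHLDA3, a p53 target, fell 2.34-fold. In these bulk libraries fewer cells of a kind, such as dividing cells, and less RNA per cell cannot be told apart.

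Among apoptosis regulators, 7 of 23 tested rose (30.4%) and 9 fell (39.1%), against 21.3% and 22.0% of all genes tested. BMF, a BH3-only protein that promotes cell death, fell 4.10-fold, and BCL2L1, which encodes the survival protein BCL-XL, fell 1.67-fold. BOK, a pore-forming relative of BAX and BAK, fell 2.14-fold.

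Early response and AP-1 factors rose more often than they fell, with 10 higher (43.5%) and 5 lower (21.7%) members among 23 tested. The shares over all genes tested were 21.3% and 22.0%. KLF4, a zinc finger factor of epithelial differentiation, had 62.9, 57.4 and 55.0 CPM in PRT3789 and 17.4, 21.1 and 18.6 CPM in DMSO and rose 3.07-fold. ATF3, a stress-induced factor, rose 2.65-fold to 102 ± 1.45 CPM in PRT3789, against 38.3 ± 1.18 CPM in DMSO. IER3, an early response gene with roles in cell survival, fell 3.85-fold to 24.0 ± 0.511 CPM in PRT3789, against 92.4 ± 8.15 CPM in DMSO. YAP and TEAD genes had 12 higher and 16 lower members among 32 tested, so all but 4 of them changed. CCN2, a matricellular target of YAP, had 172, 174 and 166 CPM in PRT3789 and 567, 517 and 508 CPM in DMSO and fell 3.11-fold. F3, tissue factor, fell 3.42-fold to 42.5 ± 1.5 CPM in PRT3789, against 145 ± 4.50 CPM in DMSO. MAPK feedback genes and EGFR ligands were divided, with 9 higher (31%) and 11 lower (37.9%) members among 29 tested. ERRFI1, a feedback inhibitor of EGFR, rose 2.27-fold, whereas the receptor EPHA2 fell 3.82-fold, the cytokine LIF 6.53-fold and the EGFR ligand HBEGF 2.03-fold.

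Genes of contact with other cells and with matrix fell more often than they rose. Of the epithelial junction genes, 6 of 45 tested rose (13.3%) and 20 fell (44.4%), against 21.3% and 22.0% of all genes tested. With the 72 h libraries fitted apart, 12 of the junction genes rose. CDH1, E-cadherin, had 171, 171 and 159 CPM in PRT3789 and 332, 319 and 346 CPM in DMSO and fell 1.99-fold. Of the other epithelial markers, KRT8 and KRT18 fell, as given above, and EPCAM, KRT7 and KRT19 did not pass the test. KRT7 varied between replicates, with 38.2, 16.6 and 13.3 CPM in DMSO. CLDN4, a tight junction claudin, fell 2.64-fold and the adhesion protein NECTIN4 3.73-fold. CLDN1 rose 2.53-fold to 284 ± 11.3 CPM in PRT3789, against 112 ± 1.29 CPM in DMSO, and CLDN16 16.7-fold to 9.10 ± 1.09 CPM in PRT3789, against 0.538 ± 0.224 CPM in DMSO. CLDN16 spans chr3:190290361-190412138, which encloses CLDN1 at chr3:190305707-190322446, so reads in the shared region rest on the counting of strand. Mesenchymal genes fell as well, with 4 higher and 15 lower members among 31 tested. TAGLN, an actin-binding protein of smooth muscle, had 13.2, 16.1 and 13.6 CPM in PRT3789 and 104, 88.6 and 91.1 CPM in DMSO and fell 6.60-fold. TPM1, tropomyosin, fell 3.85-fold, SNAI2, the repressor SLUG, 6.25-fold and FN1, fibronectin, 1.45-fold. VIM, vimentin, averaged 55.0 ± 2.45 CPM in PRT3789 and 43.9 ± 4.66 CPM in DMSO and did not pass the test (adjusted p = 0.0726). Falls in E-cadherin and in mesenchymal genes thus occurred side by side.

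Collagen and matrix genes had 11 higher (23.9%) and 20 lower (43.5%) members among 46 tested. The shares over all genes tested were 21.3% and 22.0%. SPARC, a collagen-binding matrix protein, had 30.7, 30.2 and 26.3 CPM in PRT3789 and 283, 281 and 259 CPM in DMSO and fell 9.45-fold. LAMB1, a laminin chain of basement membranes, fell 2.56-fold and COL4A1, a basement membrane collagen, 5.31-fold. COL3A1 went the other way, as given above. Collagen genes alone, taken by symbol, had 9 higher (30.0%) and 8 lower (26.7%) members among 30 tested. The type IV chains COL4A1 to COL4A6 had log2FC of -2.41, -2.17, 0.99, -0.01, 1.15 and 1.84. Matrix proteases and their inhibitors were balanced, with 8 higher (29.6%) and 9 lower (33.3%) members among 27 tested. MMP2, a gelatinase, fell 5.67-fold and TIMP1, an inhibitor of such proteases, 3.96-fold, while ADAMTS5, an aggrecanase, rose 4.62-fold. Integrins and focal adhesion genes had 7 higher (22.6%) and 13 lower (41.9%) members among 31 tested. ITGA3, a laminin receptor subunit, fell 3.76-fold to 206 ± 7.05 CPM in PRT3789, against 775 ± 8.44 CPM in DMSO, and ITGB6, which binds latent TGF-beta, 3.68-fold. CAV1, the caveolar coat protein, rose 2.87-fold to 402 ± 17.9 CPM in PRT3789, against 139.7 ± 5.12 CPM in DMSO. Kallikreins and genes of the plasminogen system, listed together, had 4 higher (18.2%) and 12 lower (54.5%) members among 22 tested. Of these falls, 10 were by at least 2-fold. PLAU, urokinase, had 22.3, 21.4 and 19.8 CPM in PRT3789 and 275, 269 and 220.2 CPM in DMSO and fell 12-fold, and its receptor PLAUR fell 1.94-fold. TFPI, the inhibitor of tissue factor, rose 2.60-fold while tissue factor itself fell. The protease, its receptor and tissue factor were thus lower in PRT3789, and the inhibitor of tissue factor was higher.

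Hedgehog signalling acts through the primary cilium and the GLI factors. Its genes were listed together with genes of the cilium, and in this joint list rises prevailed. Of its 37 tested members, 18 rose (48.6%) and 8 fell (21.6%), with a median log2FC of 0.41. The shares over all genes tested were 21.3% and 22.0%. Pathway and cilium members were not counted apart. GLI1, a factor of the pathway and a standard readout of it, had 17.0, 16.5 and 19.0 CPM in PRT3789 and 2.96, 2.77 and 2.69 CPM in DMSO and rose 6.24-fold. HHIP, a decoy receptor and also a target gene, rose 4.59-fold to 4.48 ± 0.576 CPM in PRT3789, against 0.974 ± 0.0714 CPM in DMSO. The receptor PTCH1 rose 1.96-fold and the signal transducer SMO 1.48-fold. All PRT3789 libraries were above all DMSO libraries in GLI1, HHIP and PTCH1. The groups did not overlap in 61.9% of all genes tested, so this separation is a description.

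TGF-beta and BMP genes moved in both directions, with 12 higher (27.9%) and 17 lower (39.5%) members among 43 tested. The shares over all genes tested were 21.3% and 22.0%. PMEPA1, a feedback target of TGF-beta, had 44, 40.2 and 38.8 CPM in PRT3789 and 203, 227 and 203 CPM in DMSO and fell 5.15-fold. SMAD3, its transcription factor, fell 3.96-fold and the inhibitor SMAD7, also a target, 2.49-fold. The ligand BMP4 fell 3.53-fold to 52.6 ± 1.74 CPM in PRT3789, against 186 ± 9.86 CPM in DMSO, while BMP2 rose 3.11-fold to 5.81 ± 0.509 CPM in PRT3789, against 1.87 ± 0.110 CPM in DMSO, and BMP6 3.11-fold. ID3, a target of BMP signalling, rose 1.80-fold and the corepressor TGIF1 2.34-fold. Wnt and Notch genes had 12 higher and 20 lower members among 48 tested. WNT7A, a secreted Wnt, had 1.39, 0.851 and 0.974 CPM in PRT3789 and 8.52, 8.63 and 10.2 CPM in DMSO and fell 8.51-fold. WNT7B fell 4.36-fold, the secreted inhibitor SFRP1 5.01-fold and LGR4, a receptor for R-spondins, 2.58-fold. NOTCH3 rose 1.79-fold to 249.7 ± 12.2 CPM in PRT3789, against 139.6 ± 6.98 CPM in DMSO.

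Growth factor systems lost more than they gained. The ligands, receptors and binding proteins of the KIT, FGF, PDGF, VEGF and IGF families were 34 tested genes. Of these, 7 rose (20.6%) and 19 fell (55.9%), against 21.3% and 22.0% of all genes tested. Their median was -0.56. FGFR2, a receptor of fibroblast growth factors, had 12.8, 14.7 and 13.3 CPM in PRT3789 and 112, 114 and 125 CPM in DMSO and fell 8.58-fold. IGFBP5, a binding protein like IGFBP3, fell 14.3-fold to 11.1 ± 1.59 CPM in PRT3789, against 159 ± 9.52 CPM in DMSO. KITLG had 216, 224 and 198 CPM in PRT3789 and 23.7, 27.1 and 25.9 CPM in DMSO, the reverse direction. Axon guidance genes changed in large steps both ways, with 15 higher and 16 lower members among 49 tested, 14 rises and 13 falls of at least 2-fold. Over all genes tested, 5.30% rose and 7.49% fell by that much. SEMA3A, a repulsive semaphorin, had 177, 183 and 166 CPM in PRT3789 and 60.3, 59.8 and 58.3 CPM in DMSO and rose 2.95-fold. SEMA3E rose 3.58-fold and NTN4, a netrin, 2.77-fold to 361 ± 10.2 CPM in PRT3789, against 130.5 ± 4.01 CPM in DMSO. SEMA7A, a membrane-anchored semaphorin, fell 3.84-fold. Neuroendocrine and neuronal genes had 9 higher and 5 lower members among 21 tested, with SYP, synaptophysin, at 6.11, 6.02 and 6.05 CPM in PRT3789 and 1.09, 1.05 and 1.20 CPM in DMSO and a rise of 5.43-fold. SLITRK5, a synaptic adhesion protein, rose 4.29-fold. CHGA, chromogranin A, averaged 0.920 ± 0.107 CPM in PRT3789 and 0.0961 ± 0.0587 CPM in DMSO.

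In the metabolic lists below falls outnumbered rises. Glycolysis and hypoxia genes had 8 higher (19.5%) and 20 lower (48.8%) members among 41 tested. The shares over all genes tested were 21.3% and 22.0%. SLC2A1, the glucose transporter GLUT1, had 38.8, 38.0 and 42.6 CPM in PRT3789 and 317, 292 and 297 CPM in DMSO and fell 7.59-fold. ADM, the peptide adrenomedullin, rose 5.6-fold to 205 ± 10.6 CPM in PRT3789, against 36.6 ± 0.645 CPM in DMSO. VEGFA, a hypoxia-induced angiogenic factor, fell 1.30-fold in the same libraries in which EPAS1 rose. Cholesterol and fatty acid genes had 4 higher and 25 lower members among 45 tested (7 higher with 72 h fitted apart), with INSIG1, a sterol sensor, lower by 2.66-fold, SCD, the stearoyl-CoA desaturase, higher by 1.35-fold and TM7SF2, a sterol reductase, higher by 2.43-fold. Genes of the unfolded protein and integrated stress response had 5 higher and 16 lower members among 40 tested; 3 were higher without replicate 3 of either group. SLC3A2, the amino acid transporter heavy chain, fell 1.89-fold and SHMT2, the mitochondrial serine hydroxymethyltransferase, 1.88-fold. DDIT3, the CHOP factor, rose 2.34-fold and CHAC1, a glutathione-degrading enzyme, 2.63-fold. NRF2 target and glutathione genes had 7 higher (18.4%) and 16 lower (42.1%) members among 38 tested, and the pentose phosphate enzyme TKT fell 2.29-fold. MYC, the growth-promoting factor, fell 1.70-fold to 58.1 ± 4.01 CPM in PRT3789, against 98.8 ± 2.92 CPM in DMSO, while its target list had 4 higher and 15 lower members among 47 tested, or 10 higher with 72 h fitted apart.

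Retinoid, eicosanoid and xenobiotic enzymes had 5 higher (14.3%) and 18 lower (51.4%) members among 35 tested. The shares over all genes tested were 21.3% and 22.0%. CYP24A1, which inactivates vitamin D, fell 4.87-fold to 15.6 ± 0.944 CPM in PRT3789, against 76.0 ± 1.37 CPM in DMSO, and the aldehyde dehydrogenase ALDH3B1 6.11-fold. Mucins and glycan enzymes had 3 higher and 17 lower members among 37 tested, with MUC20 lower by 5.31-fold and MUC1, a membrane mucin, higher by 2.68-fold at 415 ± 14.2 CPM in PRT3789 and 155 ± 6.31 CPM in DMSO. Ion channels and receptors had 7 higher and 16 lower members among 43 tested. P2RY2, a nucleotide receptor, fell 8.14-fold and KCNN4, a calcium-activated potassium channel, 8.12-fold. Lysosomal and vacuolar proton pump genes were balanced, with 16 higher (31.4%) and 14 lower (27.5%) members among 51 tested. CTSZ, a cathepsin, fell 2.55-fold and ASAH1, acid ceramidase, rose 1.90-fold. ATP6V0A4, a pump subunit of specialised epithelia like ATP6V1B1, had 0.104, 0.136 and 0.0696 CPM in PRT3789 and 4.61, 3.51 and 5.18 CPM in DMSO.

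Housekeeping lists showed few calls in the model of all 18 libraries and more when the 72 h libraries were fitted apart. Of the cytosolic ribosomal protein genes, 0 of 76 tested rose and 8 fell, with a median log2FC of -0.16, but 44 fell with 72 h fitted apart and 2 or 3 fell without replicate 1, 2 or 3 of PRT3789 or without replicate 1 or 2 of DMSO. RPLP0, a protein of the ribosomal stalk, fell 1.52-fold to 1147 ± 36.0 CPM in PRT3789, against 1742 ± 134 CPM in DMSO. RPSA and RPL8 were called but lost their call when single libraries were left out, with adjusted p of 0.0502 to 0.0895. Among oxidative phosphorylation genes, 0 of 52 passed the edgeR test and 5 had an unadjusted p under 0.05, whereas 5 rose and 16 fell with 72 h fitted apart, 4 fell in DESeq2 and 0 passed in limma-voom. Of the 13 messenger RNAs encoded by mitochondrial DNA, 0 passed in edgeR, DESeq2 or limma-voom, 1 had an unadjusted p under 0.05 in edgeR, and 4 rose with 72 h fitted apart. MT-ND6, a complex I subunit, averaged 916 ± 58.2 CPM in PRT3789 and 692 ± 49.7 CPM in DMSO (adjusted p = 0.0733).

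Lineage genes included a set that switched between replicates. Of the lung epithelial genes, 4 of 20 tested rose (20%) and 10 fell (50%), against 21.3% and 22.0% of all genes tested. Of the 14 called, 7 varied between replicates of some group, and without such genes 3 fell. LPCAT1, a surfactant lipid enzyme, did not vary in this way and fell 3.03-fold to 116 ± 1.26 CPM in PRT3789, against 350.4 ± 3.75 CPM in DMSO. ABCA3, a surfactant lipid transporter, rose 2.63-fold. CXCL6, a neutrophil-attracting chemokine, had 0.139, 0.0340 and 0 CPM in PRT3789 and 6.83, 9.68 and 16.6 CPM in DMSO. SPP1, osteopontin, had 0.139, 0.136 and 0.174 CPM in PRT3789 and 7.85, 13.6 and 16.1 CPM in DMSO, and MMP7, matrilysin, 0.104, 0.0681 and 0.0696 CPM in PRT3789 and 5.67, 7.62 and 10.2 CPM in DMSO. At 72 h the 3 genes thus stood apart by treatment, but elsewhere in the series they did not follow it. CXCL6 was at 7.46 and 10.3 CPM in replicates 2 and 3 of PRT3789 at 6 h and at 18.9 CPM in replicate 1 of DMSO at 48 h, against no more than 0.220 CPM in the other 9 libraries outside 72 h. SPP1 and MMP7 were high in the same 3 libraries. KRT5, a basal keratin, had 7.04, 0.0340 and 0.0696 CPM in PRT3789 and 0.211, 17.9 and 13.4 CPM in DMSO, so at 72 h itself it was high in 1 PRT3789 library and in 2 DMSO libraries. What sets these levels was not tested. Endothelial and fibroblast markers were 14 tested genes, of which 2 rose and 4 fell, and blood cell markers 7, of which 2 fell and none rose, or 1 without PRT3789 replicate 2. CDH5, a cadherin of endothelium, had 0, 0 and 0.0696 CPM in PRT3789 and 3.10, 2.39 and 3.02 CPM in DMSO, while PECAM1, which also marks endothelium, did not exceed 0.174 CPM in any of the 6 libraries. CSF1R, a receptor of macrophages, had 0.0347, 0.0681 and 0.104 CPM in PRT3789 and 1.13, 0.934 and 0.764 CPM in DMSO.

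**Figure D4:**
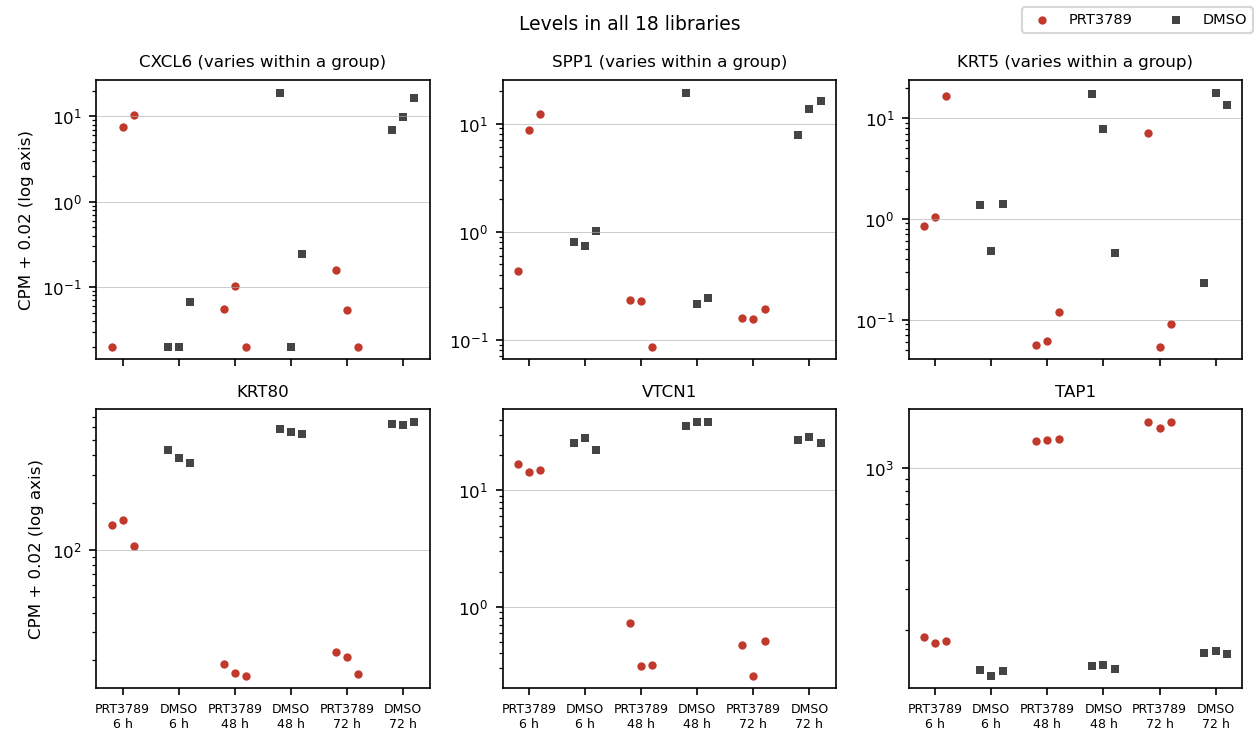
CPM (log axis) of CXCL6, SPP1, KRT5, KRT80, VTCN1 and TAP1 in all 18 libraries, 1 point per library, grouped by treatment within each time. CXCL6 and SPP1 are high in 3 libraries outside 72 h, 2 of PRT3789 and 1 of DMSO, and KRT80, VTCN1 and TAP1 differ between PRT3789 and DMSO in every library of 48 and 72 h.

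The response at 72 h was set beside that at 48 h, which has its own DMSO libraries. Replicate 3 of DMSO at 48 h holds a total of exactly 27000000 counts, unlike the uneven totals of the other libraries, and how its counts were set is not given in the sources used here. At 6 h 705 genes (4.33%) were called and at 48 h 6853 (42.1%). Of the genes called at 72 h, 5314 (75.2%) were also called at 48 h in the same direction, which is 77.5% of the 48 h calls. The 4 genes called at both times in opposite directions were ALMS1-IT1, AMIGO2, RNF128 and SFTPA2, named after their values were seen. A further 1751 genes were called at 72 h and not at 48 h, and 1535 at 48 h and not at 72 h. Of the 2084 changes of at least 2-fold at 72 h, 332 were not called at 48 h. Across the 16291 genes, which are not independent replicates, Pearson's r of the log2FC at the 2 times was 0.824. Among the 1807 genes changed at least 2-fold at 48 h, the median ratio of the 72 h to the 48 h log2FC was 0.991, and 48.6% were larger at 72 h.

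Single genes took different courses. PCDH19 had a log2FC of 1.47 at 6 h, 4.79 at 48 h and 3.39 at 72 h. The log2FC of TAP1 was 0.46 at 6 h, 3.26 at 48 h and 3.29 at 72 h. For KRT80 the log2FC was -1.53, -5.04 and -5.00 at the same times. Mitosis genes, which fell at the later times, had a median log2FC of -0.03 at 6 h, -0.78 at 48 h and -0.95 at 72 h. The change of effect between 48 and 72 h was called for 0 genes in edgeR (smallest adjusted p 0.0582), with 1476 at an unadjusted p under 0.05. DESeq2 called 103 genes and limma-voom 0. With the 12 libraries of 48 and 72 h fitted apart from the 6 h libraries, 266 were called, 129 more positive and 137 more negative at 72 h. In 148 of the 266 the effect had the same sign and was farther from 0 at 72 h, in 31 it was nearer to 0, and in 87 the sign differed. None of the 266 varied between replicates of a group. The number of genes whose effect changed after 48 h therefore differed with the libraries fitted and with the tool. Without replicate 3 of DMSO at 48 h, edgeR called 0 (smallest adjusted p 0.168), with 1321 at an unadjusted p under 0.05.

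**Figure D5:**
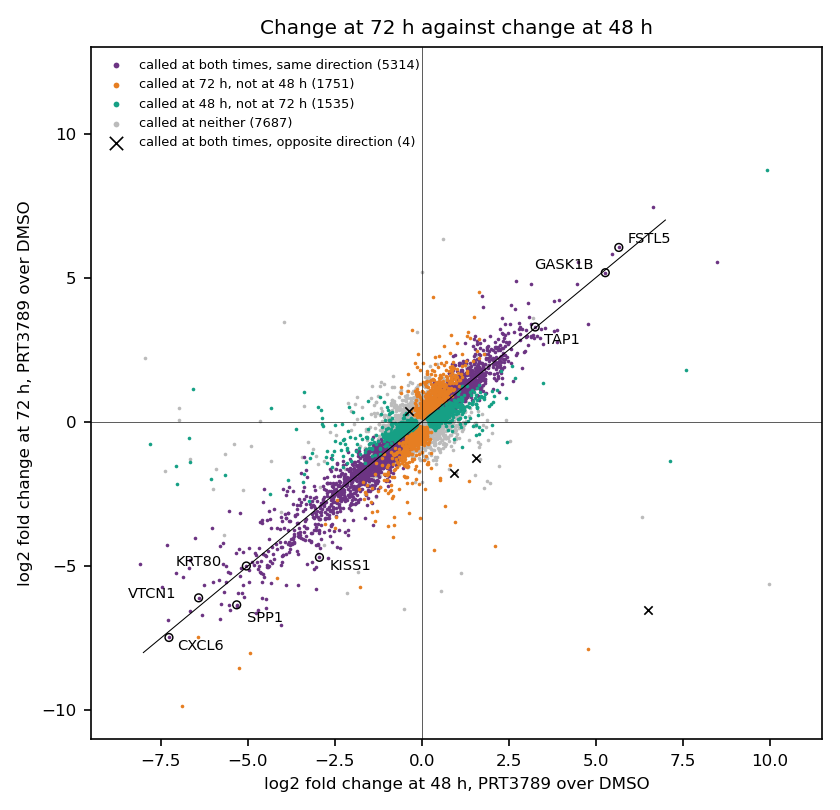
Log2FC of PRT3789 over DMSO at 72 h (y axis) against that at 48 h (x axis), 1 point per gene tested. Colours mark calls at both times, at 1 of them or at neither, and the line marks equal values. Most points lie near the line, and 5314 genes were called at both times in the same direction.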

How the data were processed

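Messenger RNA of NCI-H1693 cells was sequenced as stranded, oligo(dT)-enriched 150 bp read pairs, per the labels' protocols. Per the labels' protocols and the submitters' processing notes, the authors used nf-core/rnaseq 3.17.0 with Trim Galore, STAR on GRCh38 (patch 14, annotation release 110) and RSEM, with strandedness set automatically; versions of the single tools are not given in the sources used here. The deposited table holds expected counts for 43236 symbols, already as whole numbers, of which 16043 were at 0 in every library. Reads that fit several genes are divided by RSEM, so near-identical copies are uncertain.

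The low-count filter filterByExpr, given the 6 groups, left 16291 genes, and those removed carried no more than 0.0482% of any library. After TMM scaling, edgeR 4.0.16 under R 4.3.3 fitted all 18 libraries in 1 robust quasi-likelihood model, with two-sided F tests. The 72 h contrast and its difference from the 48 h contrast were taken from that model, with Benjamini-Hochberg adjustment over all genes tested. CPM uses TMM-scaled totals; log2 CPM used a prior count of 2. A count of 3 corresponds to about 0.1 CPM, and counts carry no molecular identifiers, so depth speaks for counting error only. Simulated data with known changes were made for this comparison (16291 genes). Recovered were 39 of 66 genes changed by 0.5 log2 units, 61 of 67 changed by 1 and 66 of 67 changed by 2, with 3 false calls. The changed genes all had a mean of at least 1 CPM, and every other gene had no effect. In the data 43.4% of genes were called, so these rates need not hold there or for lower genes.

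Genes are named by a rule: KRT80, PLAU, SMARCA2 and SMARCA4, and the 15 largest rises and falls (mean of at least 5 CPM, no overlap of the groups, an official symbol). It also takes the 10 largest gains and losses in CPM of at least 2-fold, and the genes of at least 5 CPM in 1 group and under 0.5 CPM in the other. The 4 smallest p of each of 43 gene lists complete it. A further rule took 8 called genes per direction for the change between 48 and 72 h. In the model of all 18 libraries 0 genes were called for that change, so it named none there. The 8 per direction reported came instead from the 12 libraries of those times fitted apart, without symbols that have a second, pseudoautosomal copy. Further genes of a list, such as PTCH1, VIM or COL4A1, were picked after their values were seen. Some genes that the rule names are not reported here. The members, lists and tests were chosen with earlier results of these data known. Lists are described by counts and medians and carry no test of their own.

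Replicate numbers share no stated origin. Over 13593 genes, the deviations of same-numbered PRT3789 and DMSO libraries of 72 h from their group means correlated at -0.239, -0.110 and -0.168, so numbers were not used as pairs. Promoters came from a RefSeq table on GRCh38.p14 and were matched by symbol for 12540 of the 16291 genes. Alternatives were DESeq2 1.42.0 size factors or test, total counts, other filters, limma-voom (limma 3.58.1), a replicate block, 72 h fitted apart, the 12 libraries of 48 and 72 h fitted apart, an adjusted p under 0.01, a 2-fold minimum and each library left out. Leaving out genes that vary between replicates, and leaving out PRT3789 replicate 1 with DMSO replicate 3, were chosen after seeing the data.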

Additional observations from a re-analysis of the deposited data

Results flagged for a closer look

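Genes whose PRT3789 effect differed between 48 and 72 h were flagged by a test of that difference in the 12 libraries of those times; none of them was called in the model of all 18 libraries. Values are the log2FC at 72 h minus that at 48 h, so a shift of the level in either group enters them. The inhibitors of differentiation ID3 (0.91) and ID2 (0.62) were higher in PRT3789 than in DMSO at 72 h, with ID3 at 135 ± 7.0 CPM in PRT3789 and 74.6 ± 3.28 CPM in DMSO. At 48 h ID3 was at 61.1 ± 1.83 CPM in PRT3789 and 63.1 ± 9.08 CPM in DMSO, which did not pass the test. The growth arrest gene GADD45A (0.55), the glutathione-degrading enzyme CHAC1 (1.05), the class I gene HLA-B (0.68) and the tubulin TUBA1A (0.52) were called higher at both times and by more at 72 h. The same holds for EPB41L4A-AS1 (0.73), an antisense transcript whose reads rest on the counting of strand. The annexin ANXA1 (0.60) was at 479 ± 9.19 CPM in PRT3789 and 325 ± 20.6 CPM in DMSO at 72 h.

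In the other direction, SCD (-0.68), the stearoyl-CoA desaturase, was at 1888 ± 46.0 CPM in PRT3789 and 1397 ± 50.6 CPM in DMSO at 72 h, and at 2951 ± 20.7 CPM in PRT3789 and 1346 ± 152 CPM in DMSO at 48 h. Its rise was thus smaller at 72 h. The desaturase FADS2 (-0.51), the ligand BMP4 (-0.48), the membrane proteins TMEM130 (-0.99) and KIRREL1 (-0.55) and the kisspeptin precursor KISS1 (-1.74) fell at both times and by more at 72 h. The TGF-beta coreceptor TGFBR3 (-0.63) and the nuclear envelope protein SYNE1 (-0.76) fell at 72 h and did not pass the test at 48 h. SYNE1 stood at 21.3 ± 0.843 CPM in PRT3789 and 40.9 ± 6.01 CPM in DMSO at 72 h, and at 21.4 ± 0.946 CPM in PRT3789 and 24.1 ± 1.80 CPM in DMSO at 48 h, so its DMSO level also differed between the times.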

How the results depend on the processing

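With a minimum change of 2-fold, 864 genes were higher and 1220 lower; under the other alternatives both counts of the 72 h comparison stayed within 1.5 times. With replicate number as a block, although the libraries share no more than a number, 6835 of the 7069 calls were kept in the same direction. Fitting 72 h apart kept 7018, DESeq2 6989, limma-voom 6978 and an adjusted p under 0.01 5356. Of 200 called named genes, 196 were called under every alternative fit at an adjusted p under 0.05, and none changed sign; the 2-fold minimum and the threshold of 0.01 are not counted there, and genes such as SMARCA2 cannot pass that minimum; CXCL6 (adjusted p 0.153) and SPP1 (0.0707) lost their call in limma-voom, and CXCL6 (0.0565) also when PRT3789 replicate 1 and DMSO replicate 3 were left out together. The share of calls that were higher was 49.2% and ran to 56% with total counts, which shift the median log2FC of all genes to 0.06. The count of genes with a change of effect between 48 and 72 h was 0 in the model of all libraries, 3 with no filter, 103 in DESeq2, 2 with the replicate block, 266 with the 12 libraries fitted apart and 0 to 9 with a library left out; 9 came with replicate 1 of DMSO at 48 h left out and 1 with replicate 1 of PRT3789 at 72 h left out. The cause was not tested. Depth limits genes near 0.1 CPM, where a library holds about 3 counts.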

Other observations

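Some gene families, grouped by the letters of their symbols, changed mostly in 1 direction. Among 240 families with at least 8 tested members, those below were picked after their values were seen, so their counts are descriptions and carry no test. Interferon regulatory factors and their binding proteins (symbols with IRF) had 7 of 10 members higher, ADAMTS proteases 7 of 11, Krüppel-like factors (KLF) 9 of 15 and EPHA receptors 5 of 8, against 21.3% of all genes. ADAMTS15 rose 5.25-fold, ADAMTS1 1.92-fold, KLF11 2.15-fold and EPHA4 2.25-fold. Secreted Wnt ligands had 9 of 12 members lower, with a median log2FC of -0.80, galectins and LGALS3BP (LGALS) 6 of 8 with a median of -1.34, and annexins (ANXA) 9 of 13 with a median of -0.68, against 22.0% of all genes. LGALS1, a secreted lectin, fell 2.73-fold to 51.0 ± 5.80 CPM in PRT3789, against 139 ± 10.2 CPM in DMSO, and ANXA2, which binds plasminogen activator at the cell surface, 1.61-fold to 763 ± 17.7 CPM in PRT3789, against 1226 ± 65.5 CPM in DMSO. The augmin subunits (HAUS), which nucleate microtubules in the spindle, had 7 of 8 members lower, with HAUS5 lower by 1.62-fold.

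Some genes outside the lists, also picked after their values were seen, had near relatives that moved the same way. PCDH9, a protocadherin like PCDH19, had 7.81, 9.46 and 8.56 CPM in PRT3789 and 1.41, 1.57 and 1.46 CPM in DMSO and rose 5.81-fold, and PCDH17 rose 6.06-fold to 5.62 ± 0.452 CPM in PRT3789, against 0.918 ± 0.245 CPM in DMSO. Of the pregnancy-specific glycoproteins, whose near-identical copies make counts uncertain, PSG4 was at 4.50 ± 0.386 CPM in PRT3789 and 27.4 ± 1.80 CPM in DMSO and PSG5 at 0.126 ± 0.0192 CPM in PRT3789 and 3.51 ± 0.113 CPM in DMSO.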
